A study of Mus musculus with 2 samples.

Results

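The nuclei described here were a subset of visceral endoderm-type nuclei of the mouse embryo at embryonic day 7.0, the 250 barcodes with the highest joint RNA level of Rasgrf2, Ltk, Tfec, Nrk, Pde11a, Arid3c and Fam163a. Candidates had 3000 to 30000 RNA UMIs (unique molecular identifiers, 1 per captured transcript), at least 2000 peak counts and at least 3 UMIs of Cubn, which encodes cubilin, an endocytic receptor of the visceral endoderm. The score was the mean over the 7 genes of ln(1 + UMIs per 10000). The 250 members were 7.40% of 3379 Cubn-positive barcodes, 2.15% of 11605 barcodes in the depth range, and came from 15341 deposited barcodes. They were compared with the 3129 other Cubn-positive barcodes and with the 8226 remaining barcodes of the depth range.

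Pooled embryos gave 1 nuclear RNA library and 1 chromatin accessibility library from the same nuclei (10x Genomics multiome). All 15341 barcodes were distinct, carried 1 library suffix and could not be tied to an embryo. Title, age and protocol named day 7.0 embryos, whereas the cell type, tissue, source and strain entries named goblet cells, sections of small intestine and colon, and RedMUC298trTg, and no genotype or treatment separated groups. With 1 library per assay no test was possible: every interval below is a 95% interval that covers counting error only, and nuclei are not replicates.

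The visceral endoderm is an absorptive epithelium that surrounds the early embryo, takes up maternal nutrients through cubilin, amnionless and megalin, and secretes apolipoproteins and carrier proteins before the liver exists. Over the extraembryonic region its cells are tall and rich in endocytic vesicles and lysosomes, and over the epiblast they are flatter and supply signals and antagonists that pattern the embryo. Rasgrf2 encodes a guanine nucleotide exchange factor for Ras and Rac, Ltk a receptor tyrosine kinase related to Alk, Tfec a member of the MiT/TFE transcription factors, Nrk a germinal centre-type kinase, Pde11a a cyclic nucleotide phosphodiesterase, and Arid3c a DNA-binding protein of the ARID family.

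The label was checked against markers. Of 19 pan visceral endoderm genes outside the rule, 16 were at least 2-fold higher than in the 8226 remaining barcodes with an interval clear of 1, where 11% of 16748 genes tested were (20.1% were lower), and their median log2 fold was 3.34 against -0.23 over all genes. Of 8 goblet and intestinal markers, Tff3 and Clca1 were at 0 in the members, Muc2, the intestinal mucin, had 1 UMI, and Fcgbp, Zg16, Agr2 and Spdef had 1 or 2 each. Vil1, villin, made up most of that list, at 86.5 CPM (UMIs per 1000000 of the group's total) in members and 88.7 in matched barcodes, and is a brush border gene that the visceral endoderm also expresses. Of 8 immune markers, 6 were at 0: Ptprc, C1qa, C1qb, Tyrobp, Lyz2 and Cd74. The 8 decidua markers summed to 94.4 CPM in members, 51.1 in the other Cubn-positive and 44.1 in matched barcodes, of which Bmp2, also a visceral endoderm signal, made up 92.0 in members. Prl3c1 and Prl8a2 of that list were at 0 and the other 5 had 1 to 3 UMIs. The 12 markers of definitive endoderm and node summed to 258.8, 459.3 and 243.7, with Shh, Pyy and Cdx1 at 0. Of 8 of these tested against matched barcodes, Foxj1 (2.45-fold, 1.42 to 4.21) and Foxa1 were at least 2-fold higher, with 27 UMIs each in members, where 1.54% of all genes were. Parietal endoderm markers summed to 1743.7, 1768.2 and 1764.9, those of primitive streak and mesoderm to 239.9, 419.1 and 290.0, and those of extraembryonic ectoderm to 313.9, 490.5 and 322.7. The part of such RNA in the results was not tested.

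Median depth was 14119.5 UMIs and 18850 peak counts in members, against 13394 and 19332 in other Cubn-positive barcodes. Cubn itself differed: its median was 103.5 UMIs in members and 30 in the others, of which 37.1% had fewer than 10. A set of 750 other Cubn-positive barcodes was therefore matched to the members on Cubn UMIs per 10000 and RNA UMIs, 3 per member (median 102.5 Cubn UMIs and 14135 UMIs), after the data had been seen. Scrublet, a caller of doublets (2 nuclei in 1 droplet), marked 2% of members (5 barcodes), 9.6% of matched and 12.7% of other Cubn-positive barcodes. Called doublets were kept, and counts without them are given below.

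Promoters of 3 score genes are shown: Rasgrf2, Pde11a and Fam163a. Those of Rasgrf2 and Pde11a were more accessible in members than in the other Cubn-positive barcodes. The promoter fold of Fam163a had an interval that included 1, as had those of Ltk, Nrk and Arid3c, which are not shown. The 3 shown were the only ones of the 7 in which a motif searched for was found. Sequences are from RefSeq (GRCm38.p6, the patch series of the mm10 build that the submitters' processing notes name) and run from 250 bases before to 50 after the start, 5′ to 3′ on the gene's strand. Capitals mark the searched motifs: CACGTG, the E-box bound by MiT/TFE factors among others, and CAAAGTCCA, an HNF4-type element, each on both strands. They lie at chr13:92131779-92132078 (minus strand), chr2:76338889-76339188 (minus strand) and chr1:156204977-156205276 (minus strand).
Rasgrf2: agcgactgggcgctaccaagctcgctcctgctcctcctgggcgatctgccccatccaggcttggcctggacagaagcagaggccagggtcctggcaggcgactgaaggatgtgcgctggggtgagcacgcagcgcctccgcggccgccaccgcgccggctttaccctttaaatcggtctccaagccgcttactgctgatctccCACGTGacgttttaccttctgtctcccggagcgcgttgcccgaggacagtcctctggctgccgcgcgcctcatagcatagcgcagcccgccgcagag
Pde11a: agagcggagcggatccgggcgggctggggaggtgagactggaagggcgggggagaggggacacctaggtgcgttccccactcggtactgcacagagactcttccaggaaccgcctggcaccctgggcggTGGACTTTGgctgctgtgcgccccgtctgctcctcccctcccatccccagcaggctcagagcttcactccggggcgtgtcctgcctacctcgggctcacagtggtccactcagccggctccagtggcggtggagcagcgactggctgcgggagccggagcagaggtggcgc
Fam163a: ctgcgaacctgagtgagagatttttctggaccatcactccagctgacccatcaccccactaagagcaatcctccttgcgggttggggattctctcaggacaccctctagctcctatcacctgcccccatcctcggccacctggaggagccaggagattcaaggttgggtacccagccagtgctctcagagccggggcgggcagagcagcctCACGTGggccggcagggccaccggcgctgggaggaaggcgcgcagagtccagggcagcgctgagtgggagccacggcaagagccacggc
CACGTG was found once each in the Rasgrf2 and Fam163a promoters, where 7.15% of 32851 promoters of the same length hold it. The HNF4-type element was found in the Pde11a promoter and in 0.475% of all promoters. None of the 7 promoters held the GATA-type letters AGATAA (in 11.2% of all promoters), the forkhead-type letters TGTTTAC (3.65%), the box with the letters TATAAA (13.6%) or an HNF1-type palindrome (0.00913%) on either strand. A match describes letters and not a bound site, and a missing one says only that they are not in this window. The GC content was 66% for Rasgrf2, 69.3% for Pde11a and 64.3% for Fam163a, against a median of 52.7% over all promoters, and 40.3% for Tfec, the 1 score gene with no deposited peak in this window.

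The values that chose the members are given as a description only. Nrk reached 1423.5 CPM in members (5215 UMIs), 350.5 in other Cubn-positive barcodes, 559.8 in matched barcodes and 27.7 in the remaining barcodes. Its term made up 52.6% of the members' mean score, and 248 of the 250 members held at least 1 Nrk UMI. Rasgrf2 stood at 65.2 CPM in members and 6.57 in the other Cubn-positive barcodes, and Ltk at 25.1 and 3.14. Both were sparse: 41.2% of members held a Rasgrf2 UMI and 23.2% an Ltk UMI, so that a majority of members lacked a Rasgrf2 UMI and a majority an Ltk UMI at this depth. The level of Tfec was 105.6 CPM in members against 22.3, that of Arid3c 105.4 against 18.5, that of Pde11a 66.3 against 8.71 and that of Fam163a 32.2 against 3.54. These levels are not comparable between genes, since transcript length was not taken into account.

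**Figure D1:**
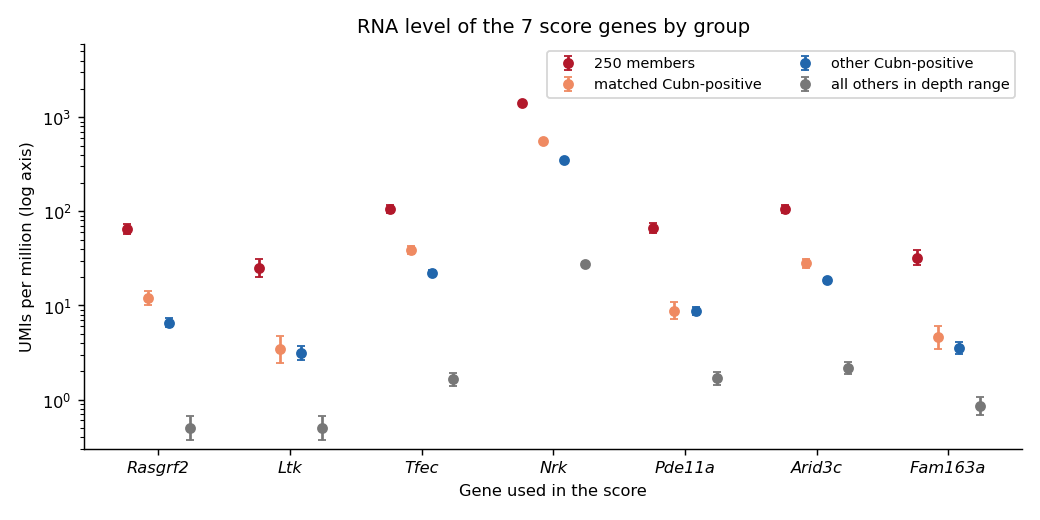
CPM (log axis) of the 7 score genes in the 250 members, 750 matched and 3129 other Cubn-positive barcodes and 8226 remaining barcodes; bars are 95% counting intervals. Members sit highest by construction of the score, from 25.1 for Ltk to 1423.5 for Nrk.

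The score genes were seldom all captured in the same nucleus. Members showed 2 (22 barcodes), 3 (79), 4 (90), 5 (51) or 6 (8) of the genes, and none showed all 7. The commonest combination was Tfec, Nrk and Arid3c without the other genes, in 24 members (9.6%). Rasgrf2 and Ltk UMIs occurred together in 19 members (7.6%) and in 2 of the 750 matched barcodes. Both genes are in the score and matched barcodes lie below its cut, so the rule itself favours this contrast. It is not read as a sign that the genes go together. Scores ran from 0.589 to 1.08, and the edge of the set was not a gap: the lowest member scored 0.5888 and the next barcode 0.5880. The 10 barcodes just inside together held 6 Rasgrf2, 2 Ltk and 229 Nrk UMIs, and the 10 just outside 8, 1 and 131. When every barcode was thinned to 3000 UMIs before scoring, 143 of the 250 members were chosen again.

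The shares of barcodes with a UMI after thinning to 3000 UMIs are given as a description, because members were chosen on the UMIs of these 7 genes and thinning draws from those UMIs. A Rasgrf2 UMI was left in 11.2% of members, 1.66% of other Cubn-positive barcodes and 0.18% of an epiblast reference (3340 barcodes with no Cubn UMI and at least 5 UMIs over 8 epiblast genes; unthinned share 0.509%, median depth 10455 UMIs), and an Ltk UMI in 8.4%, 1.09% and 0.15%. Tfec was left in 27.2% of members and 0.719% of the epiblast reference, Pde11a in 16.8% and 0.389%, Arid3c in 24.8% and 0.569%, and Fam163a in 9.2% and 0.359%. For Fam163a the matched barcodes were above the other Cubn-positive ones before thinning (5.47% against 4.03%) and below them after it (0.533% against 0.927%). Nrk stood apart with 94% of members and 6.74% of the reference. The limit of 5 UMIs was loose, since the 8 epiblast genes summed to 1902.0 CPM over all remaining barcodes, and nuclei of other lineages were not removed. The reference was close to the remaining barcodes: Lef1 stood at 471.6 CPM in it and 475.6 in them. It is therefore not read as pure epiblast.

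To see whether the genes went together beyond their own use in the score, each was left out in turn and the 250 highest barcodes chosen on the other 6. The gene left out was at least 2-fold higher in the chosen barcodes than in the other Cubn-positive barcodes for 7 of 7 genes, where 1.81% of genes tested over the same comparisons were. Rasgrf2 was 4.37-fold higher (3.58 to 5.32; 138 UMIs in the chosen barcodes), Ltk 3.79-fold (2.75 to 5.16; 55 UMIs), Pde11a 3.64-fold (3.0 to 4.39) and Fam163a 3.58-fold (2.65 to 4.75; 63 UMIs). The left-out folds of Arid3c, Tfec and Nrk were 3.16, 2.40 and 2.40. Against barcodes matched on Cubn and RNA UMIs the count was 4 of 7 (background 1.34%): Rasgrf2 at 2.54 (2.01 to 3.21), Ltk at 2.70 (1.84 to 3.96), Pde11a at 2.86 (2.26 to 3.62) and Fam163a at 2.45 (1.73 to 3.46). Arid3c at 1.98, Nrk at 1.53 and Tfec at 1.30 stayed under 2-fold, with intervals above 1. The 7 genes were themselves chosen for the label from these data, so the left-out folds are not independent evidence that the genes belong together.

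**Figure D2:**
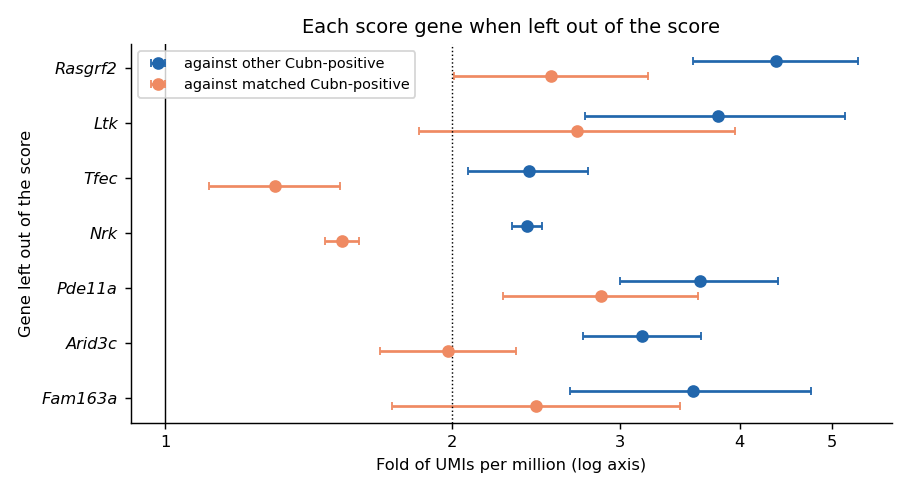
Fold (log axis) of each score gene between the 250 barcodes highest for the other 6 genes and 2 comparison sets, with 95% counting intervals; the dotted line marks 2-fold. Against other Cubn-positive barcodes all points lie beyond 2, and against matched barcodes Tfec (1.30), Nrk (1.53) and Arid3c (1.98) do not.

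Chromatin accessibility, which the score did not use, also placed many members near each other. In a nearest-neighbour graph built from peaks alone over the 3379 Cubn-positive barcodes, 37.3% of a member's 14 nearest neighbours were members on average, against 9.30% for matched and 5.41% for other Cubn-positive barcodes. A majority of neighbours were members for 30% of members and 3.33% of matched barcodes. The share was 42.8% for members at or above the median peak count and 32.1% for those below it. Yet 20 members (8%) had no member among their neighbours.

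Partition of that graph gave 13 clusters, numbered by size. Cluster 7 held the most members, 94 (37.6%, exact binomial interval 31.6 to 43.9%), with 5.47% of matched and 5.50% of other Cubn-positive barcodes. Cluster 2 held 73 members (29.2%), cluster 1 held 32 (12.8%), cluster 5 held 27 (10.8%) and cluster 4 held 17 (6.8%). The other 7 members were spread over 3 clusters, and 5 clusters with 713 barcodes held none. Cluster 2 was shallow in accessibility, with a median of 8523.5 peak counts against 21854.5 in cluster 7. Matched barcodes were most frequent in cluster 1 (32.1%), where members were fewer. The partition was unstable: the share of members in the leading cluster ranged from 36.6% to 67.2% over the settings tried, and changing the order of the barcodes alone gave 49.2%. Under each of these settings the leading cluster held a smaller share of other Cubn-positive barcodes, from 2.74% to 15.6%. The leading cluster was picked each time as the one with the most members, which favours this direction, so it is not a check of stability.

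**Figure D3:**
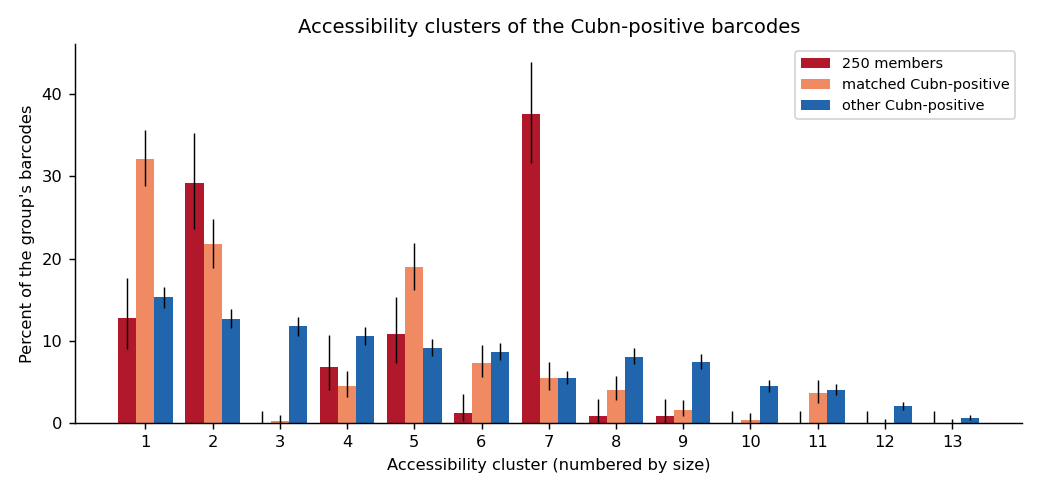
Percent of members, matched and other Cubn-positive barcodes in each of 13 clusters made from accessibility alone, with 95% exact binomial intervals. Members peak in cluster 7 (37.6%), which holds 5.47% of matched barcodes, and are absent from clusters 3, 10, 11, 12 and 13.

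Accessibility at the promoters of the score genes was not used by the score. Over the 8 promoter peaks of 6 genes, members had 132.5 FPM (fragments per 1000000 of the group's total), other Cubn-positive barcodes 99.2 and matched barcodes 108.9, or 1.34-fold (1.19 to 1.5) and 1.22-fold (1.07 to 1.38). Promoters of the 19 pan visceral endoderm genes were 1.36-fold (1.29 to 1.43) and 1.04-fold (0.98 to 1.10) in the same comparisons. Those of apolipoproteins and plasma proteins were 1.485-fold (1.41 to 1.56) and 1.13-fold (1.07 to 1.195). Those of primitive streak and mesoderm genes were 0.88-fold (0.81 to 0.96) and 0.96-fold (0.87 to 1.05). A rise of this size was thus not particular to the score genes. The Rasgrf2 promoter held 55 fragments in members, 22.1 FPM against 14.4 in the other Cubn-positive barcodes, 1.54-fold (1.14 to 2.04), and was 1.66-fold higher (1.18 to 2.32) against matched barcodes. The Pde11a promoter was 1.62-fold higher (1.23 to 2.10) against the other Cubn-positive barcodes and 1.25-fold (0.922 to 1.68) against matched ones. These were the 2 of 6 promoters with an interval above 1 against the other Cubn-positive barcodes, where 11.2% of all gene promoters were, and Rasgrf2 was the 1 of 6 against matched barcodes, where 5.08% were. Promoters of Ltk (1.27), Arid3c (1.33) and Nrk (1.36) had intervals that included 1 against the other Cubn-positive barcodes, and the Fam163a promoter stood at 0.87 (0.572 to 1.27). The Ltk value sums 3 peaks that differed. The peak at chr2:119758863-119759618 was 2.01-fold higher (1.40 to 2.80), that at chr2:119757746-119758612 1.03-fold (0.72 to 1.43), and that at chr2:119760121-119760881 held 1 fragment in members.

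Peaks over the wider regions, in which the promoter peaks are counted again, varied by gene. Within each gene and 50000 bp beyond it, 17 of 172 peaks (9.88%) were at least 2-fold higher in members than in other Cubn-positive barcodes with an interval clear of 1, where 3.96% of all peaks were. Another 7 of the 172 were at least 2-fold lower (background 7.81%), of which 2 each were at Pde11a and Arid3c and 1 each at Rasgrf2, Ltk and Fam163a. Against matched barcodes the count was 6 of 83 (7.23%; background 5.58%), a share near the background. The Rasgrf2 region held 6 of the 17, among them a peak inside the gene at chr13:92041491-92042417 with 52.3 FPM against 25.4 (2.06-fold, 1.70 to 2.48). Against matched barcodes that peak was 1.58-fold higher (1.27 to 1.95), and 1 of 8 Rasgrf2 peaks tested there passed 2-fold. Fam163a also had 6, including a pair of peaks upstream of its start at chr1:156233273-156234151 and chr1:156236340-156237261 that stood 2.40-fold and 2.39-fold above the other Cubn-positive barcodes and 2.29-fold (1.54 to 3.37) and 2.72-fold (1.83 to 4.02) above matched ones. A peak inside Ltk at chr2:119751975-119752833 was 3.73-fold higher (2.19 to 6.10) than in the other Cubn-positive barcodes and 2.63-fold (1.41 to 4.87) than in matched ones. Nrk, Arid3c and Pde11a had no such higher peak among 4, 24 and 59, and 3 of 22 Pde11a peaks tested against matched barcodes were at least 2-fold lower (background 4.36%). The lowest of these 3, inside the gene at chr2:76145485-76146352, held 4 fragments in members and was 5.60-fold lower (2.10 to 21.1).

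**Figure D4:**
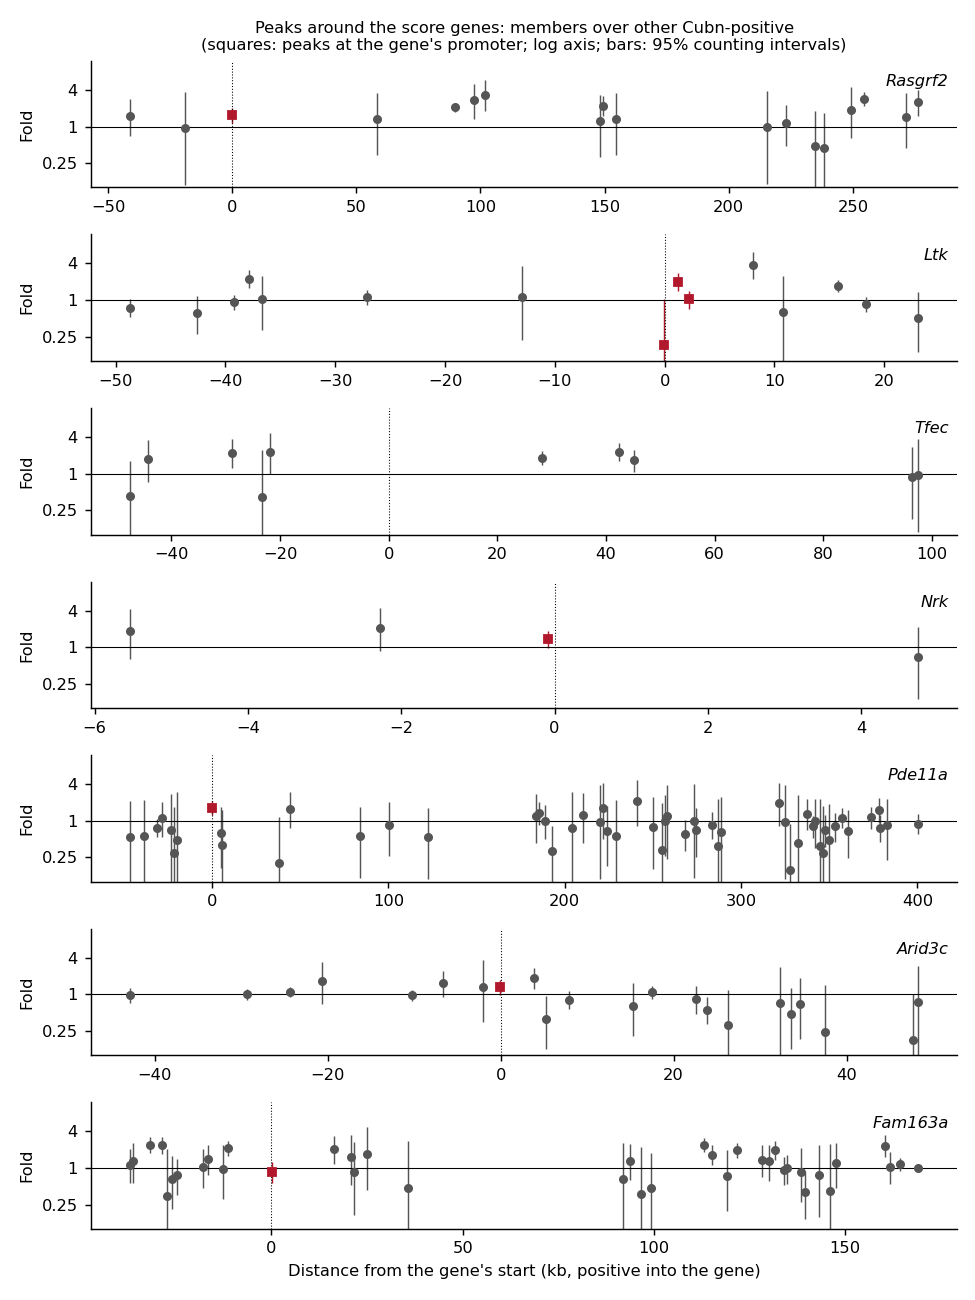
Fold of FPM in members over other Cubn-positive barcodes (log axis, 95% counting intervals, some cut by the frame) for 163 of the 172 peaks tested around the 7 score genes, by distance from the start in kb; 9 peaks with no fragment in members are not drawn. Peaks at least 2-fold higher with an interval clear of 1 lie inside and outside Rasgrf2 (6), Ltk (3), Tfec (2) and Fam163a (6). None of the Pde11a peaks is at least 2-fold higher with an interval clear of 1, and 2 are at least 2-fold lower.

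Genes outside the rule were compared next, as a description of what the chosen barcodes shared. Of 14699 genes tested, 276 (1.88%) were at least 2-fold higher than in the other Cubn-positive barcodes with an interval clear of 1 and 1541 (10.5%) were at least 2-fold lower, with a median log2 fold over all genes of -0.12. The highest fold belonged to 6330411D24Rik, at 161.3 CPM against 27.6 (5.85-fold, 5.30 to 6.46), with a UMI in 56.8% of members and 2.10% of the epiblast reference. Kcnn1, a small-conductance calcium-activated potassium channel, followed at 5.68-fold (4.16 to 7.70). Gcgr, the glucagon receptor, stood at 3.99-fold (2.89 to 5.44) with 55 UMIs.

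Other genes among the 30 with the highest folds moved when the comparison barcodes were matched on Cubn. Afp, alpha-fetoprotein, reached 779.9 CPM against 272.0 (2.87-fold, 2.75 to 2.99) and was 1.89-fold higher against matched barcodes. Slc34a3, a sodium-phosphate cotransporter, went from 3.15-fold to 1.56-fold, Spp2, a secreted phosphoprotein, from 2.93-fold to 1.89-fold, and Nr3c2, the mineralocorticoid receptor, from 2.71-fold to 1.49-fold, so that all 4 were past 2-fold in the first comparison and not in the second. Enpep, an aminopeptidase, was past 2-fold in both (2.92-fold and 2.30-fold), as was Kynu, kynureninase of tryptophan breakdown (3.02-fold and 3.11-fold). Hnf4aos, which lies antisense to Hnf4a, went from 3.01-fold to 1.49-fold. Hnf4aos and Hnf4a were counted as separate genes. How strand was used in counting was not given in the sources used here, and whether reads of one were counted for the other was not tested.

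The genes farthest below the other Cubn-positive barcodes were ones that the epiblast reference showed in at least 19.5% of barcodes for each of the 20 lowest. The 8226 remaining barcodes showed them in similar shares, at least 19.03% for each, so these genes were not particular to that reference. Myt1l, a zinc finger factor, had no UMI in members against 12.3 CPM, at least 15-fold lower when the floor is set at 3 counts in members. Kcnq3, a potassium channel, had 2 UMIs, 59.4-fold lower with an interval of 16.4 to 491, and Kcnj3 had 6 UMIs, 29.5-fold lower (13.5 to 80.4). Against matched barcodes the folds were smaller, 17.3-fold lower for Kcnq3 (4.68 to 145) and 7.5-fold for Kcnj3 (3.36 to 20.8), and Myt1l, at least 3.89-fold lower by the same floor, had too few UMIs to be tested. A UMI of Myt1l was in 22.2% and of Kcnj3 in 50.1% of the epiblast reference, and in 20.65% and 45.4% of the remaining barcodes. The other Cubn-positive barcodes included the 37.1% with few Cubn UMIs and more doublet calls, and the part of these in the low folds was not tested.

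Matching on Cubn and RNA UMIs cut the lower genes to 267 (2.31% of 11539 tested) and the higher ones to 178 (1.54%), with a median log2 fold of -0.03. 6330411D24Rik remained highest (4.71-fold, 4.13 to 5.38), with Kcnn1 at 4.57-fold (3.05 to 6.91). Rspo3, a secreted enhancer of Wnt signalling, had 110.5 CPM in members and 33.9 in matched barcodes (3.26-fold, 2.82 to 3.76). Bmper, a secreted BMP-binding protein, was 2.84-fold higher (2.43 to 3.30), and Porcn, the acyltransferase that Wnt ligands need for secretion, 2.83-fold (1.99 to 4.02). F5, coagulation factor V, stood at 132.4 against 39.0 (3.40-fold, 2.98 to 3.88). Col23a1, a transmembrane collagen, was 3.85-fold higher (3.47 to 4.27). Itpr2, an intracellular calcium channel, was 3.21-fold higher, Dpyd, of pyrimidine breakdown, 2.98-fold, and Per2, of the circadian clock, 2.77-fold. Arhgef26 was 2.79-fold higher than in matched barcodes and 0.93-fold against all other Cubn-positive barcodes, with an interval of 0.827 to 1.04. Against all other Cubn-positive barcodes Bmper (2.08), F5 (2.58) and Dpyd (2.24) were past 2-fold too, whereas Rspo3 (1.53), Col23a1 (1.84), Per2 (1.86), Porcn (1.39) and Itpr2 (1.37) were not. Rspo3 was lower in members than in the 8226 remaining barcodes, 110.5 against 142.5 CPM (0.78-fold, 0.701 to 0.856), as was Arhgef26 (0.67-fold, 0.594 to 0.744). Within accessibility cluster 7 several of these genes were not higher in members, as given below.

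Among the genes lowest against matched barcodes, Zeb2, a repressor of epithelial genes, had 6.01 CPM against 35.7, 5.94-fold lower (3.87 to 9.59). Igsf11, an adhesion molecule, was 4.81-fold lower (3.09 to 7.89), Epas1, a hypoxia-inducible factor, 3.93-fold (2.46 to 6.65), Ece1, an endothelin-converting protease, 4.20-fold (2.84 to 6.47) and Adamts1, a secreted protease, 3.57-fold (2.51 to 5.24). Lef1, a nuclear effector of Wnt signalling, was 4.16-fold lower (3.25 to 5.40), with a UMI in 78.5% of the epiblast reference and 77.7% of the remaining barcodes. With doublet calls removed before members and matched barcodes were chosen, all 30 named higher and all 20 named lower genes stayed past 2-fold. The fold moved by over 1.5 times for 6 of the 20 lower genes. Slit2, a guidance ligand, went from 4.64-fold to 2.44-fold, Fat3, an atypical cadherin, from 4.87-fold to 3.06-fold, Gria4, a glutamate receptor subunit, from 4.58-fold to 2.05-fold, Hs6st2, a heparan sulfate sulfotransferase, from 4.76-fold to 2.79-fold, Zc3h12b from 4.02-fold to 2.32-fold and Slit3 from 3.94-fold to 2.09-fold. Igsf11, at 5.08-fold lower, and Epas1, at 4.74-fold lower, stood further below matched barcodes than with doublet calls kept.

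**Figure D5:**
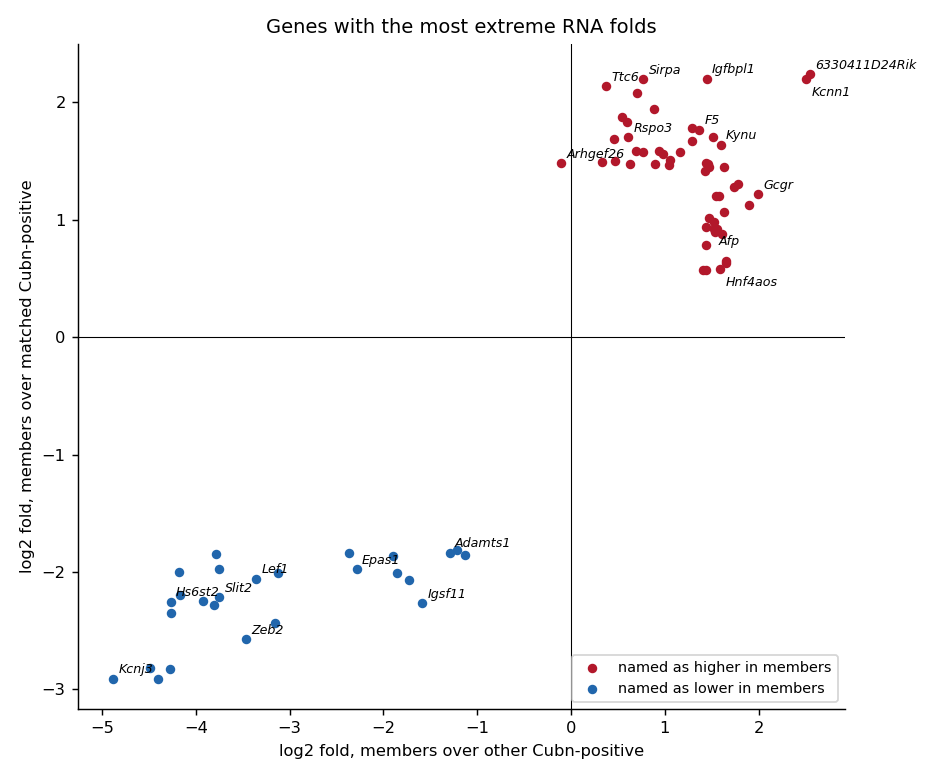
log2 fold of RNA in members over other Cubn-positive barcodes (x axis) and over matched barcodes (y axis) for the genes with the highest and lowest folds in either comparison, leaving out those with 3 or fewer UMIs in members. 6330411D24Rik and Kcnn1 are far out on both axes, and Arhgef26 is high on the y axis only.

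The promoters of genes with higher RNA tended to be more accessible in members. Of the 178 genes higher than in matched barcodes, 162 had promoter fragments to compare and 39 of these (24.1%) had a promoter fold with an interval above 1, where 5.08% of all gene promoters did; their median log2 promoter fold was 0.19 against 0.00 over all promoters. The 267 lower genes had 28 of 226 promoters with an interval below 1, where 4.07% of all gene promoters did, and 4 above. The Abca4 promoters were 2.72-fold more accessible (1.83 to 4.02), the F5 promoter 2.17-fold (1.55 to 3.03), the Bmper promoters 1.46-fold (1.22 to 1.73) and the 6330411D24Rik promoter 1.60-fold (1.13 to 2.24). Gcgr went the other way: its RNA was 2.32-fold higher than in matched barcodes and its promoter held 15 fragments, 0.52-fold (0.280 to 0.903).

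Gene groups were then counted by role, against the shares over all genes tested: 1.88% higher and 10.5% lower against the other Cubn-positive barcodes, 1.54% higher and 2.31% lower against matched ones. Counts of 0 or 1 in a group of this size are near those shares and are not read as a result. Of 19 pan visceral endoderm genes, 5 were at least 2-fold higher than in the other Cubn-positive barcodes and none lower, with a median log2 fold of 0.72; against matched barcodes none passed in either direction and the median was 0.27. Apob, the scaffold of lipoprotein particles, was 1.46-fold higher (1.43 to 1.49) than in matched barcodes, Ttr, a thyroid hormone carrier, 1.33-fold and Apoa1 1.33-fold. Lrp2, megalin, was 0.66-fold (0.627 to 0.684) and Apoc2 0.60-fold (0.564 to 0.627). Of 25 apolipoproteins and plasma proteins, 7 were at least 2-fold higher than in the other Cubn-positive barcodes and none lower (background 1.88% and 10.5%; median log2 fold 0.69). Of 24 tested against matched barcodes, where 1.54% of genes were higher and 2.31% lower, 2 were higher, F5 and Ambp (2.92-fold, 1.79 to 4.75), and Apoa2 was lower, 0.47-fold (0.341 to 0.647), with a median of 0.14. Of 28 hepatic and endoderm transcription factors, 3 were higher and 3 lower against the other Cubn-positive barcodes, with Hnf4a, a hepatocyte nuclear factor, at 2.19-fold. Of 24 against matched barcodes, Foxa1, a forkhead factor, was higher (3.0-fold, 1.69 to 5.31), Prox1, a homeobox factor, was lower (0.20-fold, 0.0639 to 0.494), Hnf4a stood at 1.37-fold, and the median log2 fold was -0.22.

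Genes of the anterior and embryonic visceral endoderm depended on the comparison. Of 16, 8 were at least 2-fold lower than in the other Cubn-positive barcodes and none higher (background 10.5% and 1.88%; median log2 fold -0.93), whereas 3 were higher and none lower against matched barcodes (background 1.54% and 2.31%; median 0.27). The 3 were Wnt3, a Wnt ligand (2.41-fold, 1.97 to 2.95), Nodal, a TGF-beta family ligand (2.25-fold, 1.75 to 2.89), and Sfrp5, a secreted Wnt antagonist (2.23-fold, 1.70 to 2.93). Sfrp5 was uneven among members: it stood at 149.3 CPM in the 17 members of accessibility cluster 4, at 25.7, 17.3 and 6.74 in those of clusters 7, 2 and 1, and at 0 in those of cluster 5, against 11.7 in matched barcodes. With the barcodes of cluster 4 left out of both groups, Sfrp5 stood at 17.3 CPM against 5.54 (3.12-fold, 2.13 to 4.56). Otx2 stood at 16.6 CPM in members against 73.1 in the other Cubn-positive barcodes, Lefty1 at 4.91 against 23.7 and Hhex at 9.28 against 24.5. Against matched barcodes none of these 16 genes had an interval below 1. Of 16 extraembryonic visceral endoderm genes, 2 were higher and none lower against the other Cubn-positive barcodes (median 0.45). Against matched barcodes none was higher and 1 lower, Msx1, a homeobox factor (0.48-fold, 0.409 to 0.567), counts near the background of 1.54% and 2.31% (median 0.04). Spink1 of that list, a secreted protease inhibitor, was 1.73-fold higher (1.68 to 1.78). Over all barcodes of the accessibility clusters, Spink1 was highest in cluster 4 (3036.3 CPM), where Sfrp5 was highest too (129.4), and stood at 834.1 in cluster 1. Slc13a4 of the same list went the other way, with 122.9 in cluster 4 and 459.6 in cluster 1. The rise of Spink1 is therefore not read as an extraembryonic trait.

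Of 44 signalling genes, 1 was higher and 9 lower against the other Cubn-positive barcodes (background 1.88% and 10.5%; median log2 fold -0.30). Of 42 tested against matched barcodes (background 1.54% and 2.31%; median -0.05), 5 were at least 2-fold higher: Wnt3, Nodal, Sfrp5, Bmp2 (2.29-fold, 1.98 to 2.65) and Cfc1, a Nodal co-receptor (2.19-fold, 1.86 to 2.57). Lef1 was the 1 that was lower. With the barcodes of accessibility cluster 1, which held 32.1% of the matched barcodes and 12.8% of the members, left out of both groups, Nodal (1.90), Sfrp5 (1.72), Bmp2 (1.97) and Cfc1 (1.78) were under 2-fold with intervals above 1, and Wnt3 was at 2.19. With cluster 2, 4, 5 or 7 left out of both groups in turn, all 5 stayed past 2-fold. Against the other barcodes of cluster 7, however, the members of that cluster were not 2-fold higher in Wnt3, Bmp2, Sfrp5 or Nodal. The folds there were 1.49 (1.105 to 2.015), 1.34 (1.06 to 1.70), 1.21 (0.776 to 1.88) and 0.47 (0.344 to 0.643). None of the BMP-responsive genes Id1, Id2, Id3 and Smad6 passed 2-fold, with Id1 at 0.85-fold, Id2 at 0.71-fold, Id3 at 0.72-fold and Smad6 at 0.52-fold (0.448 to 0.591). Runx1, listed among haemato-endothelial genes, was 0.36-fold (0.312 to 0.424) and Pdgfra, a growth factor receptor, 0.32-fold (0.265 to 0.380), whereas Cdh5, a defining endothelial gene, was at 0 in members. Summed over the 10 haemato-endothelial genes, members had 71.0 CPM, other Cubn-positive barcodes 142.2 and matched barcodes 172.7, most of it Runx1. The 8 epiblast genes summed to 851.1, 1161.3 and 755.3, and none of them passed 2-fold against matched barcodes. The part of such RNA in the folds above was not tested.

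Relatives and partners of the score genes were counted too. None of 9 Ras exchange factors and Ras proteins tested, none of 6 Ltk partners and none of 8 MiT/TFE factors with folliculin partners was 2-fold higher or lower than in matched barcodes. With 1.54% of all genes higher and 2.31% lower, such counts do not set these groups apart from other genes. Alk, the nearest relative of Ltk, had 2 UMIs in members, and its ligand genes Alkal1 and Alkal2 had 1 and 2. Mitf was 1.61-fold higher (1.21 to 2.12) and Tfe3 0.55-fold (0.420 to 0.720). The median log2 fold of 26 lysosome and autophagy genes was 0.43 against the other Cubn-positive barcodes and 0.06 against matched ones, with none past 2-fold in either comparison. Of 15 phosphodiesterases, 2 were higher and 5 lower against the other Cubn-positive barcodes (background 1.88% and 10.5%). Among 10 tested against matched barcodes (background 1.54% and 2.31%), Pde8b was higher (2.12-fold, 1.33 to 3.37) and Pde3b lower (0.41-fold, 0.275 to 0.606). Arid3a was 1.36-fold and Arid3b 1.14-fold. Of 21 cell cycle genes, none was higher and 2 were lower against the other Cubn-positive barcodes, Cdc6 and Rrm2 (median log2 fold -0.49), and none passed 2-fold against matched barcodes (median -0.11).

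Members were not uniform among themselves, as their RNA in different accessibility clusters showed (genes tracked by cluster were chosen after values were seen). Rspo3 stood at 166 CPM in the 94 members of cluster 7 and at 115.1 in the 73 of cluster 2, but at 18 in the 32 of cluster 1 and 22.3 in the 27 of cluster 5. In these 4 clusters Bmp6, a BMP ligand, ran in the opposite order, with 40.6 and 63.2 in clusters 7 and 2 against 197.6 and 147.7 in clusters 1 and 5. Barcodes of clusters 7, 2, 1 and 5 that were not members had 259.1, 32.4, 7.81 and 14.4 CPM of Rspo3. Their Bmp6 stood at 27.9, 203.7, 271.8 and 319.6, so a contrast of this kind was not particular to members. The 17 members of cluster 4 were low in both, with 28.3 CPM of Rspo3 and no Bmp6 UMI, and had 266.4 CPM of Lhx1, a LIM homeobox factor of the anterior visceral endoderm, and the lowest Cubn (4855). Within cluster 7, members had higher Cubn than the 172 other barcodes (8014 against 4321) and lower Lhx1 (0.38-fold, 0.316 to 0.452), Rspo3 (0.64-fold, 0.550 to 0.744) and Nodal (0.47-fold, 0.344 to 0.643). 6330411D24Rik was 1.92-fold higher (1.63 to 2.27) and Kcnn1 2.41-fold (1.41 to 4.18) in the members of that cluster, and Bmper 1.77-fold (1.40 to 2.23). Some other genes given above as higher than in matched barcodes were not 2-fold higher there. Arhgef26 was at least 2-fold lower, 0.48-fold (0.399 to 0.569), and Col23a1 was 0.67-fold (0.599 to 0.753). Itpr2 was 0.82-fold, Porcn 0.84-fold, F5 0.98-fold, Dpyd 1.04-fold and Per2 1.14-fold, these 5 with intervals that included 1. Among the genes named as lowest against matched barcodes, Zeb2 (1.04-fold, 0.341 to 2.93) and Ece1 (1.40-fold, 0.59 to 3.25) had intervals that included 1 within cluster 7. So did Igsf11, Epas1, Adamts1, Fat3, Gria4 and Hs6st2, all on 2 to 12 UMIs in members. Lef1 (0.43-fold, 0.215 to 0.809), Slit2, Slit3 and Zc3h12b had intervals below 1. In that comparison 0.639% of 8607 genes were at least 2-fold higher and 1.67% lower. Shares as small as these are not read as a difference between the barcodes of the cluster.

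Accessible regions were then compared over all peaks. Away from promoters, 7.36% of 43627 peaks were at least 2-fold higher in members than in matched barcodes and 5.4% lower, against 0.87% and 1.61% of 16428 promoter peaks. Fragment counts were not matched between promoter peaks and the others, and folds scatter more at low counts. The difference between these shares is therefore not read as a result. Among peaks with at least 30 fragments in members, the highest fold was at chr15:84238360-84238974 inside Parvb, a parvin of cell adhesion. It held 31 fragments in members and 11 in matched barcodes, 12.5 FPM against 1.36 (9.19-fold, 4.50 to 20.3). Against the other Cubn-positive barcodes the same peak was 2.85-fold higher (1.87 to 4.21). A peak at chr10:29570872-29571667, 35402 bp from the start of Rspo3, had 37 fragments in members and was 5.75-fold higher (3.28 to 10.3). Rspo3 RNA was past 2-fold against matched barcodes, but not against all other Cubn-positive barcodes, and was lower in members within cluster 7. A link between this peak and that RNA was not tested. A peak at chr7:139941968-139942711, 1450 bp from the start of Utf1, was 6.01-fold higher (3.34 to 11.1). Against the other Cubn-positive barcodes, a peak at chr5:65356600-65357428 inside Klb, a co-receptor of endocrine FGFs, was 4.47-fold higher (2.96 to 6.59). The lowest peaks against matched barcodes included chr8:77450808-77451679 inside Arhgap10, with no fragment in members and 55 in matched barcodes. A peak's nearest gene is given as position only. Sequences of these peaks were not used here.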

How the data were processed

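Per the file headers and the submitters' processing notes, the deposited matrix came from Cell Ranger ARC 2.0.0 and mm10; the authors deposited whole-number UMI counts per gene and cut-site counts per peak, not normalized. For aligner and peak caller settings the labels and headers hold no entry. The barcode list that the authors deposited gave names only. Peak counts were mostly even (86.4% of nonzero values), so fragments were taken as the count divided by 2, rounded up.

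Counts were summed over barcodes of a group and divided by the group's total. Folds are ratios of these shares, with exact 95% intervals conditional on the summed counts. A gene was tested at 50 UMIs and a peak at 30 fragments over both groups, and called at 2-fold with an interval clear of 1; promoter folds of genes were called on the interval alone. The calculation was tested on simulated data; there a small share of unchanged genes was called as well, more than the limit first set for that check, which was then replaced by the error rate the interval allows, so small call shares are not read as differences. Promoters ran from 1000 bp before to 100 bp after a start. Peaks in at least 50 barcodes were TF-IDF weighted and reduced to 30 singular vectors (the first, tied to depth, dropped), with 15 neighbours counting the barcode itself, and clustered with leidenalg 0.10.2 in scanpy 1.11.5 at resolution 1.

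Named genes were the 30 highest and 20 lowest folds in each comparison with a UMI in at least 10% of members (or of the comparison barcodes, for lower ones), the higher ones with at least 50 UMIs in members. Named peaks outside promoters were the 15 highest with at least 30 fragments in members and the 5 lowest with at least 200 in the other Cubn-positive barcodes (fewer for matched ones, by their smaller number), of which a few are printed. One of the named genes is not reported here. Members, marker lists and the score genes were chosen with earlier results of these data known. The matched set, its use without doublet calls, the change of barcode order and the clusters left out in turn were added after seeing the data.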

Additional observations from a re-analysis of the deposited data

How the results depend on the processing

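Over 51 alternatives, 31 values stayed within 1.5 times the reported count, or within the interval of the reported fold or share. The fold over score gene promoters kept its direction and stayed within its interval in 10 of 10 alternatives, from 1.20 to 1.49. For genes 2-fold higher in members, 276 as reported, the count became 1126 when 1 Cubn UMI sufficed and 147 when 5 were asked for, 425 under median ratio scaling, 156 with at least 200 UMIs, 173 against others matched on UMIs and 178 against others matched on Cubn and UMIs. For genes 2-fold lower, 1541 as reported, the same Cubn limits gave 2579 and 915, at least 200 UMIs gave 1020, matching on UMIs 1020, matching on Cubn and UMIs 267, and that matching with doublet calls removed 225. The share of members in the leading accessibility cluster, 37.6% as reported, became 59% for the 100 highest scores, 65.6% and 58.8% with at least 1 and 5 Cubn UMIs, 58.8% with doublet calls removed, 60% at resolution 0.5, 67.2% with 20 singular vectors and 49.2% in matrix order. The count of left-out score genes that were higher ran from 5 to 7 over 6 other settings and was 4 against matched barcodes. Why these values moved was not tested. With few UMIs per nucleus, membership near the edge is imprecise: removing doublet calls kept 245 of 250 members and thinned counts 143. No paired analysis was possible because each assay had 1 library, and no replicate could be left out.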
